A study of Homo sapiens with 18 samples.

Results

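The SNAIL, ZEB and TWIST genes SNAI1, SNAI2, ZEB1, ZEB2, TWIST1 and TWIST2 encode the transcriptional repressors most often used to describe epithelial-mesenchymal transition (EMT). They were followed through all 8 array probes that the platform annotation gives to these 6 genes, of 47323 probes and 20046 named genes on the array. SNAI2 and ZEB2 had 2 probes each and the other genes had 1. The cells were HCC827, an established human lung adenocarcinoma line that carries a mutant EGFR and grows as an epithelium. Total RNA of 18 samples was hybridized to Illumina bead arrays, 3 arrays for each of 6 groups.

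The first group, called TGFB1 here, was treated with the cytokine TGFB1, and untreated parental cells were its control. The SNAIL group carried a pLX303 lentivirus for overexpression of SNAIL-V5, a tagged SNAI1 protein. Its titles read pLX303-lacZ SNAIL-V5, so whether its vector also held lacZ is not settled here. The lacZ group carried the control lentivirus pLX303-lacZ, with a bacterial gene that has no role in EMT. The shCDH1 group carried the vector pLKO1 with a hairpin that silences CDH1, which encodes E-cadherin, and the shNT group carried pLKO1 with a non-target hairpin. The exposure to TGFB1 is 30 days in the sample labels but 72 hours (10 ng/mL) in the text on the series, and is not settled here. All groups derive from this single line, and the labels do not say whether infected cells were pools or clones. Within a group the titles run from 1 to 3 but the descriptions read 1, 1 and 2, so separate cultures are not established. The p-values below measure the spread between these arrays, which may be technical.

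SNAI1 and SNAI2 (also called SLUG) are zinc finger proteins, ZEB1 and ZEB2 combine zinc fingers with a homeodomain, and TWIST1 and TWIST2 are basic helix-loop-helix proteins. The SNAIL and ZEB proteins bind E-box sequences in the promoters of epithelial genes such as CDH1 and recruit corepressors, and the TWIST proteins bind E-boxes as dimers with E proteins. TGF-beta signalling through SMAD proteins is a known inducer of several of these genes, and the miR-200 microRNAs are known repressors of ZEB1 and ZEB2. In EGFR-mutant lung cancer, loss of epithelial character is one of the states in which EGFR inhibitors work less well.

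Levels are log2 intensities after background correction and quantile normalization, and the array-wide median level was 6.82. CDH1, the gene targeted by the hairpin, read 8.82, 8.84 and 8.14 on the shCDH1 arrays, against 13.02, 13.04 and 12.94 on the shNT arrays, a level 21.1-fold lower (limma, adjusted p = 7.83e-22). Of 10 markers of a lung epithelial cancer line, 10 lay above that median in parental, lacZ and shNT cells, 9 in TGFB1 cells, 9 in SNAIL cells and 8 in shCDH1 cells. Above a level of 8 lay 5 in SNAIL and 10 in lacZ cells. Their summed intensity was 13900 to 14700 on the SNAIL arrays, against 75400 to 77900 on the lacZ arrays. It was 33700 to 36700 on the shCDH1 arrays, against 74600 to 78500 on the shNT arrays. On the TGFB1 arrays it was 46600 to 48900, against 80300 to 83100 on the parental arrays. The controls differed among themselves. CDH2 (N-cadherin) averaged 10.56 in lacZ and 8.17 in shNT cells, against 6.36 in parental cells, and both differences passed (18.4-fold and 3.52-fold). VIM (vimentin, ILMN_1782538) averaged 12.86 in lacZ and 10.45 in shNT cells, against 10.27 in parental cells, and CDH1 13.12 and 13.00, against 13.03. Over all probes, 3726 were called in lacZ and 6632 in shNT cells against parental cells. For the SNAIL group, member probes, CDH1 and the counts of gene lists are therefore also given against parental cells, an alternative added after the data were seen. Folds of other named genes in SNAIL cells are against lacZ cells unless stated. In shCDH1 cells, counts of gene lists and folds of other named genes are against shNT cells alone. Median intensities of the arrays as deposited ran from 152 to 236, and 2 of the 3 TGFB1 arrays were the lowest.

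The E-box most used to describe SNAIL and ZEB binding is CAGGTG or, read on the other strand, CACCTG. Promoters are shown because ZEB1 and the brighter ZEB2 probe were called higher in all 3 experiments while CRB3 and CLDN7, epithelial genes with several copies of this E-box before at least 1 start, were called lower in all 3. Each run holds the 250 bases before an annotated start in RefSeq (GRCh38.p14), in the gene's own direction, with matches on either strand in capitals. ZEB1 is shown at the third of its 7 starts in the table (chr10:31318966-31319215, plus strand), ZEB2 at its start (chr2:144520120-144520369, minus strand), CRB3 at its start (chr19:6464021-6464270, plus strand) and CLDN7 at the second of 2 (chr17:7262479-7262728, minus strand).
ZEB1: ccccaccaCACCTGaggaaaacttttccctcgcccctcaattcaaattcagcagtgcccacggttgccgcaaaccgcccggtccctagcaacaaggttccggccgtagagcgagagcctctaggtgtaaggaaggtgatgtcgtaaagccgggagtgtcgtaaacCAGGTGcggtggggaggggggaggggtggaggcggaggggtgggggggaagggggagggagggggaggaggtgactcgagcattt
ZEB2: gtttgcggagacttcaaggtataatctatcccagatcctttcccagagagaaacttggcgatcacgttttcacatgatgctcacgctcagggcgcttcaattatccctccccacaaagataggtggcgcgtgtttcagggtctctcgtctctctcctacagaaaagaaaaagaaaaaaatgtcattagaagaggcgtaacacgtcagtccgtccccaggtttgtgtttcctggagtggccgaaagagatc
CRB3: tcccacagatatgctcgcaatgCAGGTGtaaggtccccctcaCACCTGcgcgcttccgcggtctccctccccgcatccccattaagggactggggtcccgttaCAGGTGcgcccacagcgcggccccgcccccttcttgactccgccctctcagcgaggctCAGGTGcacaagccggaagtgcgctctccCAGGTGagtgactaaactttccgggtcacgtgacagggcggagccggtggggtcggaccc
CLDN7: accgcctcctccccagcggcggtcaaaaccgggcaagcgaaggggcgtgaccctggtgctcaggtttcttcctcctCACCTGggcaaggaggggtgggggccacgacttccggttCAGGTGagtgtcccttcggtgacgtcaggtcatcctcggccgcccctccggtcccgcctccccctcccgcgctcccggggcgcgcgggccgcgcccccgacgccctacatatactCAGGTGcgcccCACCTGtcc
The ZEB1 window holds 2 matches, the ZEB2 window 0, the CRB3 window 5 and the CLDN7 window 4. The first CLDN7 start holds 0. Among all 35116 starts of the table, 17.5% hold at least 1 match in a window of this length, 2.5% hold 2 or more and 0.46% hold 3 or more. Of the other ZEB1 starts, the first holds 1 match and the rest 0, and the looser motif CANNTG stands in 61.8% of all starts and once in the ZEB2 window. A match is a stretch of letters and not a measured binding site. Of the members, ZEB1, ZEB2 and TWIST2 matched the table (3 of 6), and the TWIST2 window holds 0 matches. Only 51.4% of the epithelial genes described below (18 of 35) had a start in the table. Of these 18, 8 (44.4%) held a match at the first listed start, against 17.5% of all genes in the table. Over all their starts, 13 of 23 (56.5%) held a match. This difference was not tested, and the list was chosen with earlier results of these data known.

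**Figure D1:**
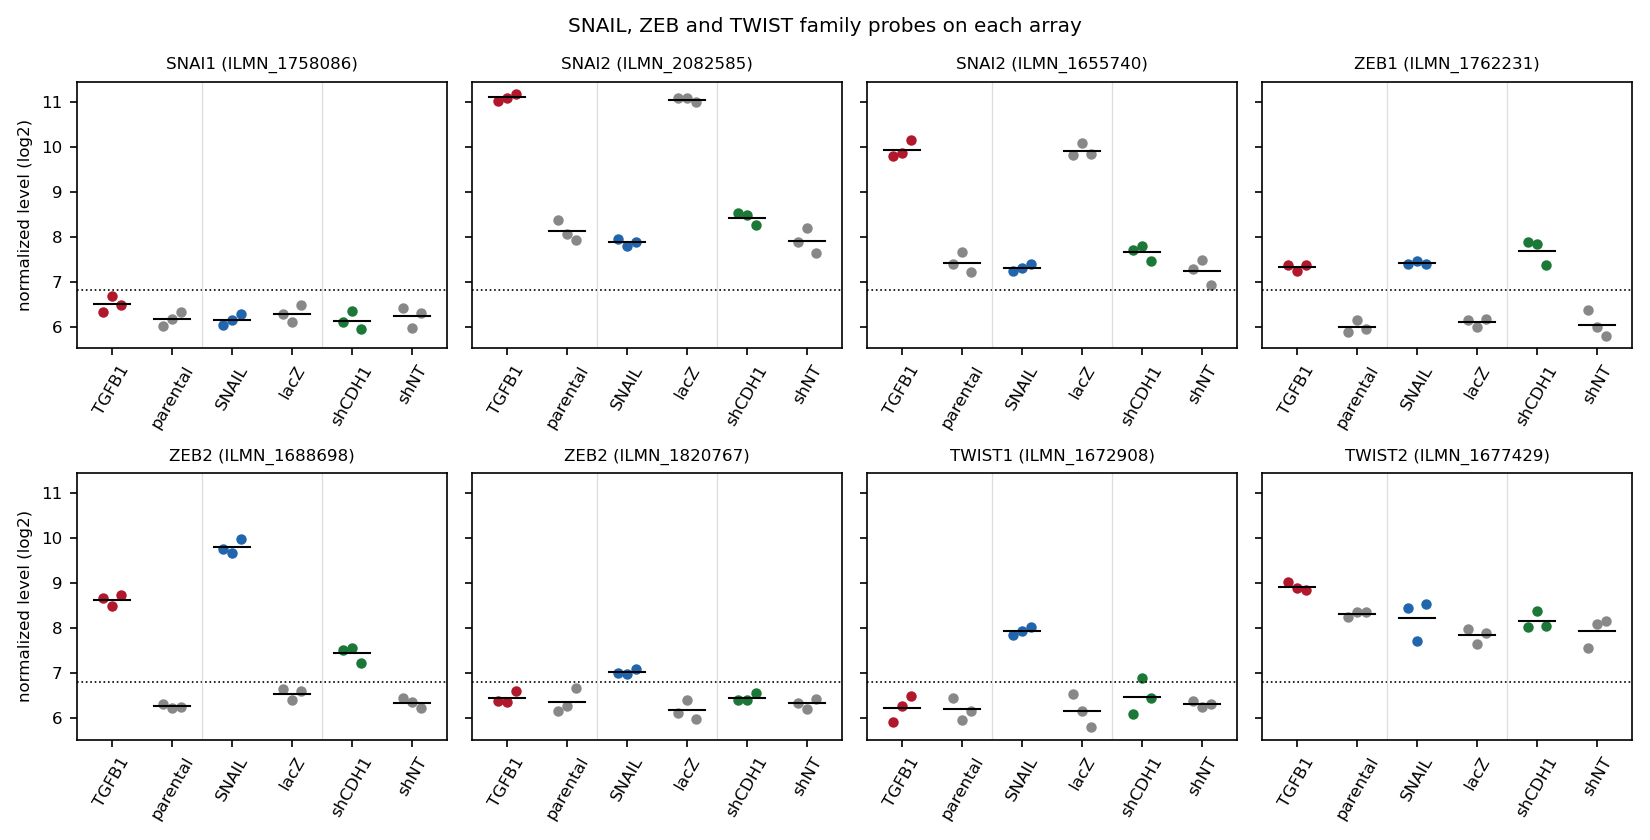
Level of each SNAIL, ZEB and TWIST probe on every array. The x axis gives the 6 groups, each treated or modified group left of its control, and the y axis the normalized log2 level. Points are arrays, horizontal bars are group means (n = 3) and the dotted line is the array-wide median of 6.82. SNAI2 is high in TGFB1 and lacZ cells, ZEB1 and ZEB2 (ILMN_1688698) are high in TGFB1, SNAIL and shCDH1 cells, TWIST1 is high in SNAIL cells, and SNAI1 lies below the dotted line throughout.

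SNAI1, the first described repressor of CDH1 (chr20:49982980-49988886, GRCh38.p14), gave a dim reading in every group, also where a SNAIL virus had been delivered. Its probe (ILMN_1758086) read 6.33, 6.69 and 6.48 on the TGFB1 arrays, against 6.03, 6.18 and 6.33 on the parental arrays. It read 6.04, 6.15 and 6.28 on the SNAIL arrays, against 6.29, 6.10 and 6.49 on the lacZ arrays. On the shCDH1 arrays it read 6.11, 6.36 and 5.96, against 6.41, 5.99 and 6.31 on the shNT arrays. The arrays of each pair of groups overlapped, those of TGFB1 and parental cells by a margin smaller than the printed digits, and all 6 group means lay below the array-wide median. In limma's test across all probes the log2 difference was 0.32 ± 0.14 (SE) for TGFB1 (adjusted p = 0.128), -0.14 ± 0.14 for SNAIL (adjusted p = 0.604) and -0.10 ± 0.14 for shCDH1 (adjusted p = 0.749). Against parental cells the SNAIL difference was -0.02 ± 0.14 (adjusted p = 0.943). The position of this probe relative to the delivered reading frame was not used here, so the probe does not check the SNAIL label. CDH1, the textbook target of SNAIL, read 7.55, 7.50 and 7.46 on the SNAIL arrays, against 13.15, 13.13 and 13.09 on the lacZ arrays, a level 49.0-fold lower (adjusted p = 2.7e-24) and 46.2-fold lower than in parental cells (adjusted p = 2.56e-24).

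SNAI2, the second SNAIL repressor and a gene of migrating neural crest and basal epithelial cells (chr8:48917598-48921429), was high in TGFB1 cells and equally high in lacZ cells. Its brighter probe (ILMN_2082585) read 11.02, 11.09 and 11.18 on the TGFB1 arrays, against 8.38, 8.06 and 7.93 on the parental arrays. It read 7.95, 7.80 and 7.88 on the SNAIL arrays, against 11.07, 11.08 and 10.98 on the lacZ arrays. On the shCDH1 arrays it read 8.53, 8.48 and 8.27, against 7.88, 8.20 and 7.63 on the shNT arrays. None of these 3 pairs of groups overlapped. SNAI2 was 7.85-fold higher in TGFB1 than in parental cells (log2 2.97 ± 0.14, adjusted p = 1.4e-16). It was 8.98-fold lower in SNAIL than in lacZ cells (log2 -3.17 ± 0.14, adjusted p = 1.79e-17). In shCDH1 cells it was 1.44-fold higher than in shNT cells (log2 0.52 ± 0.14, adjusted p = 0.00431).

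The fall of SNAI2 in SNAIL cells depended on the lacZ control. SNAI2 was 7.58-fold higher in lacZ than in parental cells (log2 2.92 ± 0.14, adjusted p = 1.64e-15). Set against parental cells instead, SNAIL cells differed by log2 -0.24 ± 0.14 (adjusted p = 0.218), and set against shNT cells by -0.03 ± 0.14 (adjusted p = 0.923). TGFB1 cells set against lacZ cells differed by 0.05 ± 0.14 (adjusted p = 0.879). The TGFB1 and lacZ comparisons share the 3 parental arrays. VIM and CDH2 were likewise higher in lacZ than in parental cells, VIM 6.02-fold (ILMN_1782538, adjusted p = 6.67e-16) and CDH2 18.4-fold (adjusted p = 1.2e-21). CDH1 was not (log2 0.09 ± 0.12, adjusted p = 0.824).

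The second SNAI2 probe (ILMN_1655740) was dimmer and followed the first in direction. It read 9.80, 9.85 and 10.14 on the TGFB1 arrays, against 7.40, 7.66 and 7.22 on the parental arrays. It was 5.67-fold higher in TGFB1 than in parental cells, 6.03-fold lower in SNAIL than in lacZ cells and 5.57-fold higher in lacZ than in parental cells (adjusted p = 3.62e-14, 1.05e-14 and 2.65e-13). SNAIL cells differed from parental cells by log2 -0.11 ± 0.15 (adjusted p = 0.677). In shCDH1 cells it read 7.70, 7.79 and 7.47, against 7.28, 7.48 and 6.93 in shNT cells, and these arrays overlapped. Its 1.34-fold higher level there (adjusted p = 0.0348) did not pass when array 1 or 2 of shCDH1 or array 1 or 3 of shNT was left out, with adjusted p up to 0.271. The brighter probe's call in shCDH1 cells did not pass without shNT array 3 (adjusted p = 0.058).

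ZEB1, a zinc finger and homeodomain repressor of CDH1 and of epithelial polarity genes (chr10:31318417-31529804), was higher in all 3 experiments by similar amounts. Its probe (ILMN_1762231) read 7.36, 7.24 and 7.38 on the TGFB1 arrays, against 5.90, 6.15 and 5.95 on the parental arrays. It read 7.41, 7.46 and 7.40 on the SNAIL arrays, against 6.16, 5.99 and 6.17 on the lacZ arrays. On the shCDH1 arrays it read 7.88, 7.83 and 7.37, against 6.37, 5.99 and 5.80 on the shNT arrays. The controls all lay below the array-wide median and the other 3 groups above it, with no overlap. ZEB1 was 2.51-fold higher in TGFB1 cells (log2 1.33 ± 0.14, adjusted p = 1.24e-08), 2.49-fold higher in SNAIL cells (1.32 ± 0.14, adjusted p = 9.32e-09) and 3.12-fold higher in shCDH1 cells (1.64 ± 0.14, adjusted p = 1.38e-10). The 3 increases did not differ past the threshold: TGFB1 minus SNAIL was 0.01 ± 0.20 (SE, adjusted p = 0.986), TGFB1 minus shCDH1 -0.32 ± 0.20 (adjusted p = 0.328) and SNAIL minus shCDH1 -0.33 ± 0.20 (adjusted p = 0.313). Because the controls were dim, the fold depends on the background correction. The log2 difference in TGFB1 cells ran from 0.71 to 2.08 over the alternatives and passed the test in each that tested the probe.

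ZEB1-AS1, the antisense RNA gene that shares the ZEB1 promoter region, was chosen after its values were seen. Its brighter probe (ILMN_1829989) read 10.93, 10.86 and 10.23 on the shCDH1 arrays, against 9.69, 9.77 and 9.89 on the shNT arrays, 1.85-fold higher (adjusted p = 1.2e-05). The dimmer probe (ILMN_3249620) was 1.53-fold higher there (adjusted p = 0.00284). In TGFB1 cells the probes differed from parental cells by log2 0.34 ± 0.14 and 0.23 ± 0.15, and in SNAIL cells from lacZ cells by -0.34 ± 0.14 and -0.12 ± 0.15, none past the threshold. The sign in SNAIL cells depended on the control, since they differed from parental cells by 0.13 ± 0.14 and 0.08 ± 0.15 (adjusted p = 0.614 and 0.798). The brighter probe was higher in lacZ than in parental cells by 0.47 (adjusted p = 0.0357).

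ZEB2, the other ZEB repressor, also known as SIP1 for its binding to SMAD proteins (chr2:144384081-144520119), was higher in all 3 experiments by its brighter probe. Its brighter probe (ILMN_1688698) read 8.68, 8.49 and 8.74 on the TGFB1 arrays, against 6.32, 6.24 and 6.25 on the parental arrays. It read 9.75, 9.67 and 9.97 on the SNAIL arrays, against 6.64, 6.40 and 6.60 on the lacZ arrays. On the shCDH1 arrays it read 7.53, 7.57 and 7.23, against 6.45, 6.36 and 6.23 on the shNT arrays. The order SNAIL, TGFB1, shCDH1 and then the 3 controls held without overlap between those steps. ZEB2 was 5.15-fold higher in TGFB1 cells (log2 2.37 ± 0.13, adjusted p = 3.74e-15), 9.52-fold higher in SNAIL cells (3.25 ± 0.13, adjusted p = 1.23e-18) and 2.13-fold higher in shCDH1 cells (1.09 ± 0.13, adjusted p = 4.82e-08). Against parental cells the SNAIL cells were 11.5-fold higher (adjusted p = 1.45e-19). The differences between these effects passed the test: TGFB1 minus SNAIL was -0.89 ± 0.18 (adjusted p = 0.000344), TGFB1 minus shCDH1 1.27 ± 0.18 (adjusted p = 2.3e-06) and SNAIL minus shCDH1 2.16 ± 0.18 (adjusted p = 9.08e-11).

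The second ZEB2 probe (ILMN_1820767), designed to the expressed sequence tag CD252464, was dim and passed only in SNAIL cells. It read 6.9999, 6.9935 and 7.0950 on the SNAIL arrays, against 6.1235, 6.4189 and 5.9954 on the lacZ arrays, 1.80-fold higher (adjusted p = 9.69e-06), and was 1.58-fold higher than in parental cells (adjusted p = 0.000259). It read 6.38, 6.38 and 6.62 on the TGFB1 arrays, against 6.16, 6.28 and 6.67 on the parental arrays (adjusted p = 0.757). In shCDH1 cells its log2 difference was 0.13 ± 0.13 (adjusted p = 0.622). The 2 ZEB2 probes therefore disagree in TGFB1 and shCDH1 cells.

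TWIST1, a helix-loop-helix factor of mesoderm and cranial mesenchyme (chr7:19113047-19117636), passed the test only in SNAIL cells. Its probe (ILMN_1672908) read 7.84, 7.95 and 8.02 on the SNAIL arrays, against 6.54, 6.17 and 5.81 on the lacZ arrays, with no overlap. It read 5.93, 6.28 and 6.50 on the TGFB1 arrays, against 6.46, 5.98 and 6.17 on the parental arrays. On the shCDH1 arrays it read 6.10, 6.89 and 6.46, against 6.39, 6.26 and 6.32 on the shNT arrays. TWIST1 was 3.40-fold higher in SNAIL than in lacZ cells (log2 1.77 ± 0.18, adjusted p = 3.24e-09) and 3.33-fold higher than in parental cells (adjusted p = 3.65e-09). The log2 difference was 0.04 ± 0.18 in TGFB1 cells (adjusted p = 0.929) and 0.16 ± 0.18 in shCDH1 cells (adjusted p = 0.642). The effect in SNAIL cells exceeded that in TGFB1 cells, with TGFB1 minus SNAIL at -1.73 ± 0.25 (adjusted p = 4.33e-06). It also exceeded that in shCDH1 cells, with SNAIL minus shCDH1 at 1.61 ± 0.25 (adjusted p = 1.25e-05).

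TWIST2, the paralogue of TWIST1 known from dermal mesenchyme (chr2:238848085-238910534), was above the array-wide median in every group and changed little. It read 9.03, 8.88 and 8.85 on the TGFB1 arrays, against 8.26, 8.37 and 8.35 on the parental arrays, with no overlap. It read 8.45, 7.71 and 8.54 on the SNAIL arrays, against 7.99, 7.65 and 7.90 on the lacZ arrays. On the shCDH1 arrays it read 8.02, 8.39 and 8.05, against 7.57, 8.10 and 8.17 on the shNT arrays. TWIST2 was 1.51-fold higher in TGFB1 than in parental cells (log2 0.60 ± 0.17, adjusted p = 0.0124), a call that did not pass without TGFB1 array 1 (adjusted p = 0.0585), with median centring (adjusted p = 0.0804) or without normalization, where the difference was 0.23 (adjusted p = 0.53). Against controls of the other experiments, TWIST2 in TGFB1 cells was 2.11-fold higher than in lacZ cells (adjusted p = 2.22e-05). It was 1.97-fold higher there than in shNT cells (adjusted p = 5.43e-05). The log2 difference was 0.39 ± 0.17 in SNAIL cells (adjusted p = 0.118) and 0.21 ± 0.17 in shCDH1 cells (adjusted p = 0.5). Without SNAIL array 2, the low one, the difference in SNAIL cells was 0.65 (adjusted p = 0.00359). Its sign depended on the control, since SNAIL cells differed from parental cells by -0.09 ± 0.17 (adjusted p = 0.79) and lacZ from parental cells by -0.48 ± 0.17 (adjusted p = 0.1).

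**Figure D2:**
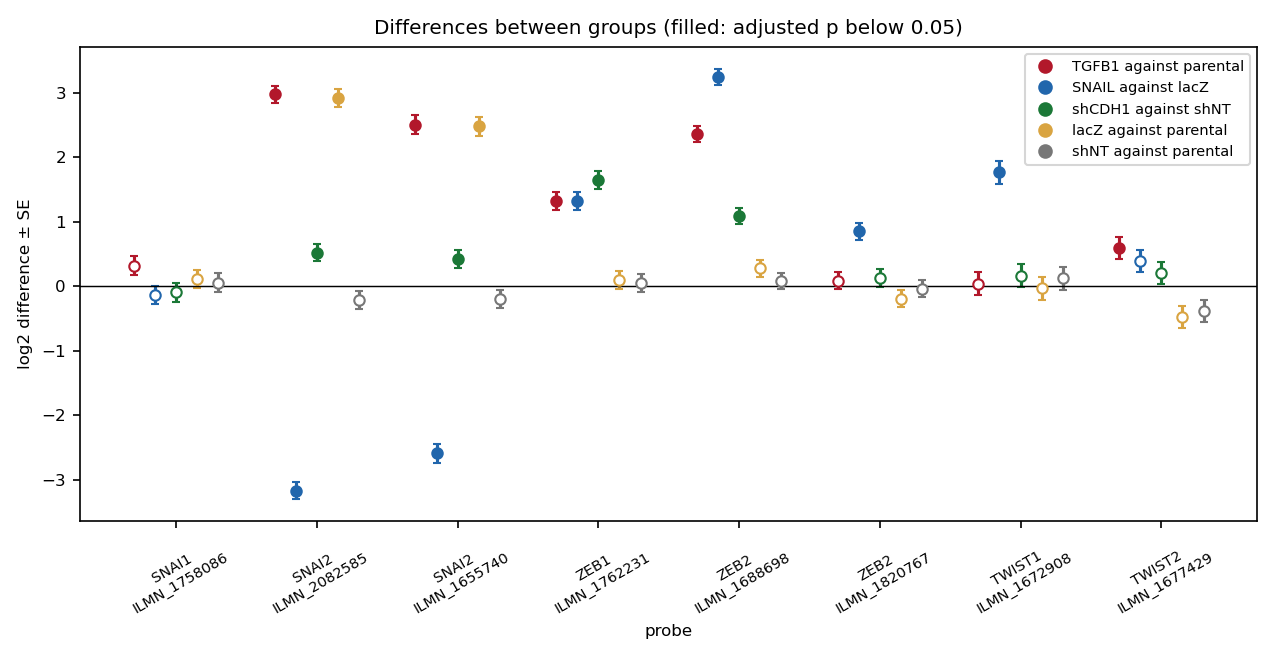
Log2 difference of each SNAIL, ZEB and TWIST probe in 5 comparisons. The x axis gives the probes and the y axis the log2 difference, with the standard error of the 6-group model as error bars. Filled points passed an adjusted p of 0.05. SNAI2 is above 2 in TGFB1 and in lacZ cells and below -2 in SNAIL cells, whereas ZEB1 lies between 1.3 and 1.7 in all 3 main comparisons.

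Counted over the family, 5 of 8 probes were higher and 0 lower in TGFB1 than in parental cells, where 9.81% of all probes were called higher and 10.6% lower. In SNAIL against lacZ cells 4 were higher and 2 lower, where 12.5% of all probes were called higher and 11.6% lower. In shCDH1 against shNT cells 4 were higher and 0 lower, where 12.5% were called higher and 10.3% lower. The median log2 difference of the 8 probes was 0.96, 0.62 and 0.31 in these comparisons, against -0.0016, -0.0011 and 0.01 over all probes. Between controls, 2 were higher and 0 lower in lacZ than in parental cells, where 4.07% were called higher and 3.80% lower, and both were SNAI2 probes. In shNT against parental cells limma called 0 of the 8 (6.88% of all probes higher and 7.13% lower), and TWIST2 alone had an unadjusted p under 0.05 (0.0373). Differences of effects were called for 5 of 8 probes between TGFB1 and SNAIL (18.4% of all probes), 3 of 8 between TGFB1 and shCDH1 (19.6%) and 5 of 8 between SNAIL and shCDH1 (20.6%). SNAI2 and ZEB2 enter these counts with 2 probes each, which are not independent.

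Across the 6 groups, 9 of 40 neighbouring pairs in the order of a probe's level differed past the threshold. Which groups were neighbours was set by the same levels that were then tested, so this count is a description. SNAI2 and ZEB2 enter it with each of their probes, which are not independent. No count of the same kind over all probes stands beside it. For SNAI2 the break lay between lacZ and shCDH1 cells: shCDH1 cells were at log2 8.43 against 11.04 in lacZ cells (adjusted p = 2.64e-15), where 21.3% of all probes were called. TGFB1 and lacZ cells above that break, and shCDH1, parental, shNT and SNAIL cells below it, did not differ from their neighbours. Groups further apart below it did differ by the brighter probe. There shCDH1 differed from shNT cells by log2 0.52 (adjusted p = 0.00431) and SNAIL from shCDH1 cells by -0.55 (adjusted p = 0.00219). The latter was not called by the dimmer probe (-0.34, adjusted p = 0.0938). For ZEB1 the break lay between TGFB1 and lacZ cells (7.33 and 6.10, adjusted p = 7.43e-08, 17.8% of all probes called), and the order above it was shCDH1, SNAIL, TGFB1. ZEB2 (ILMN_1688698) had 3 breaks: TGFB1 at 8.64 lay below SNAIL at 9.80 (24.8% of all probes called), TGFB1 lay above shCDH1 at 7.44 (26.3%), and shCDH1 lay above lacZ at 6.55. For TWIST1 and for the dimmer ZEB2 probe, SNAIL cells stood above shCDH1 cells (27.1% of all probes called) with no further break. For TWIST2, TGFB1 cells stood above parental cells, and for SNAI1 there was no break.

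Set against controls of the other experiments, ZEB1 and ZEB2 (ILMN_1688698) stayed higher in TGFB1, SNAIL and shCDH1 cells in the comparisons made. TWIST1 in SNAIL cells was 3.06-fold higher than in shNT cells, whereas in TGFB1 cells its small difference was log2 0.04 against parental and -0.08 against shNT cells, neither past the threshold. In SNAIL cells ZEB1 was 2.68-fold higher than in parental cells (27.7% of all probes called) and 2.58-fold higher than in shNT cells (30.2%). In shCDH1 cells ZEB1 was 3.23-fold and ZEB2 2.25-fold higher than in parental cells (22.4% called), and SNAI2 was not called (log2 0.31 ± 0.14, adjusted p = 0.122). In TGFB1 cells SNAI2 was 9.13-fold and ZEB2 4.89-fold higher than in shNT cells (25.9% called). Between the viral controls, lacZ cells had 8.81-fold more SNAI2 signal than shNT cells (adjusted p = 1.35e-15, 15.2% called), and ZEB2 differed by log2 0.20 ± 0.12 (adjusted p = 0.361).

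Epithelial genes were taken from a list of 38 compiled as repressed by these factors, of which 35 were measured. Whether the factors act on each of them in these cells was not measured. The list, like those below, was chosen with earlier results of these data known. In TGFB1 cells 26 were lower and 2 higher, where 14.4% of all genes were lower and 14.3% higher. In SNAIL cells 32 were lower and 0 higher (15.9% of all genes lower, 18.5% higher), and in shCDH1 cells 29 were lower and 0 higher (15.2% and 16.8%). CDH1, which the hairpin itself targets, is among those 29. The median log2 difference of the list was -1.06 in TGFB1, -3.11 in SNAIL and -2.31 in shCDH1 cells, against 0.0024, 0.01 and 0.01 over all genes. Against parental cells, 33 were lower and 0 higher in SNAIL cells, where 17.9% of all genes were lower and 21.0% higher.

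CDH1 itself moved little in TGFB1 cells, at 12.78, 12.61 and 12.67 against 13.04, 13.06 and 13.00 in parental cells. That 1.27-fold lower level (adjusted p = 0.0434) did not pass in any fit that left out 1 of the 6 arrays, with adjusted p from 0.0512 to 0.153. SNAI2, ZEB1 and the brighter ZEB2 probe were higher in TGFB1 than in parental cells, but the dimmer ZEB2 probe was not called (adjusted p = 0.757). SNAI2 in TGFB1 cells did not differ past the threshold from that in lacZ cells (adjusted p = 0.879). In SNAIL cells KRT19, a keratin of simple epithelia, was 119-fold lower and EPCAM, an epithelial adhesion molecule, 57.0-fold lower. In shCDH1 cells CDH3 (P-cadherin) read 6.07, against 12.20 in shNT cells, and MUC1, an apical mucin, 6.85, against 12.91. Such low levels lie near the 5th percentile of the arrays (6.01) or near their median, so the fitted folds, 69.9-fold and 66.7-fold lower, depend on the background offset. Both differences were larger with an offset of 16. Other large folds against a dim group carry the same limit. CEACAM6, a cell surface glycoprotein, was 73.7-fold lower in TGFB1 cells. CRB3, which sets apical polarity and carries 5 of the E-boxes printed above, was 2.43-fold lower in TGFB1, 9.09-fold in SNAIL and 6.64-fold in shCDH1 cells. CLDN7, a tight junction claudin, was 2.44-fold, 18.8-fold and 5.77-fold lower in the same cells. RAB25, ESRP1, GRHL2 and OVOL2 were also lower in all 3 experiments. OVOL2, a known repressor of ZEB1, was 2.60-fold lower in TGFB1, 48.8-fold in SNAIL and 31.3-fold in shCDH1 cells. CLDN1 and DSP (desmoplakin) were higher in TGFB1 cells, 3.12-fold and 1.44-fold, and OCLN and ESRP2 passed in no comparison. The CLDN1 window holds 0 matches, the DSP window 2 and each OCLN window 1. A link between matches and levels was not tested.

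**Figure D3:**
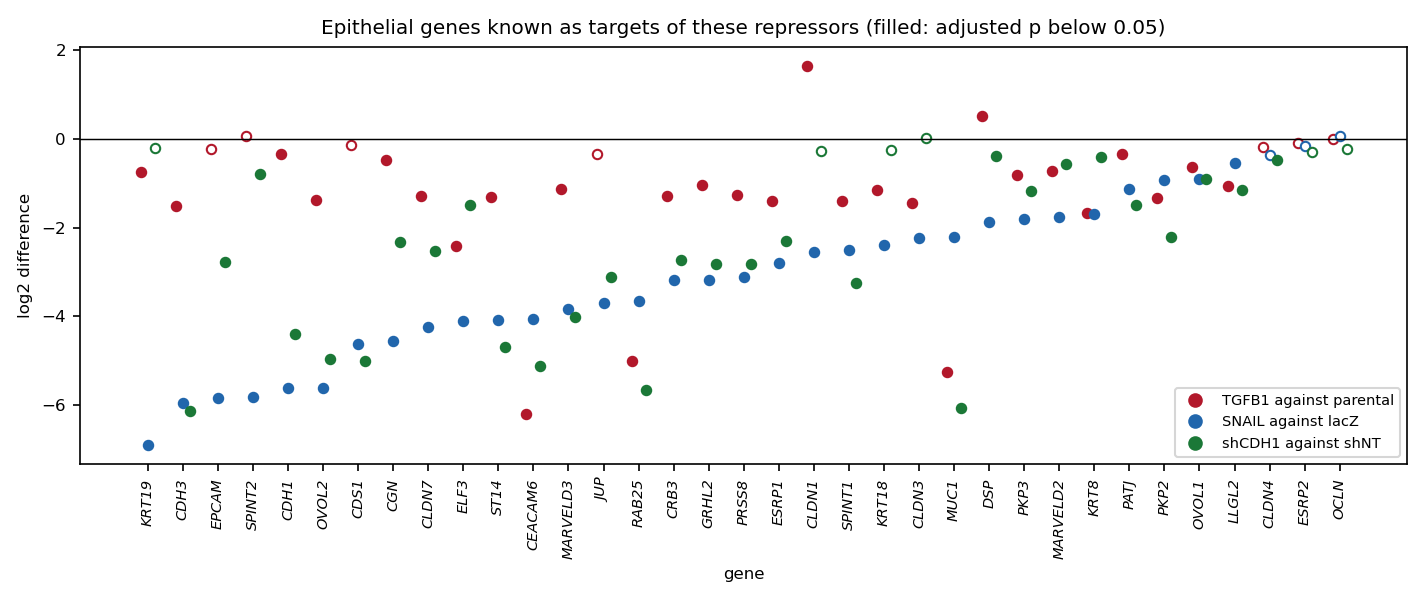
Log2 differences of the 35 measured genes from the list of epithelial genes compiled as repressed by these factors. Binding was not measured. The x axis gives the genes, ordered by their difference in SNAIL cells, and the y axis the log2 difference in each comparison, with filled points past an adjusted p of 0.05. Most points lie below 0, and CDH1 lies near 0 in TGFB1 cells and below -4 in SNAIL and shCDH1 cells.

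Of 29 measured mesenchymal genes known to rise in EMT, 18 were higher and 2 lower in TGFB1 cells, 19 higher and 1 lower in SNAIL cells, and 8 higher and 6 lower in shCDH1 cells. Those are 62.1% and 6.90%, 65.5% and 3.45%, and 27.6% and 20.7% of the list. Over all genes the shares were 14.3% and 14.4%, 18.5% and 15.9%, and 16.8% and 15.2%. Against parental cells, 21 were higher and 2 lower in SNAIL cells. COL5A1, a fibrillar collagen, was 73.9-fold higher in TGFB1 and 36.1-fold higher in SNAIL cells. COL3A1, another, was 93.6-fold and SPARC, a matrix glycoprotein, 75.8-fold higher in SNAIL cells. CDH2 was 28.0-fold higher in TGFB1 than in parental cells and 25.1-fold higher in shCDH1 than in shNT cells, but 1.87-fold higher in SNAIL than in lacZ cells, whose CDH2 was already raised. Fewer cells of a type and less RNA per cell cannot be told apart in such bulk samples.

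Summed levels of markers of other cell types differed between some groups. The fibroblast and muscle markers summed to an intensity of 5140 to 5360 on the SNAIL arrays, against 826 to 908 on the lacZ arrays. LUM (lumican) at a level of 11.47 and PDGFRB at 10.71 carried that sum in SNAIL cells, against 6.51 and 6.34 in lacZ cells, and 3 of 10 markers lay above the array-wide median in SNAIL cells. THY1, MYOD1 and FAP, at 5.93, 6.19 and 6.09 in SNAIL cells, lay below it. The same sum was 1310 to 1500 on the TGFB1 arrays, against 882 to 909 on the parental arrays, and 1830 to 1980 on the shCDH1 arrays, against 860 to 894 on the shNT arrays. Neuroendocrine markers summed to 2070 to 2140 on the SNAIL arrays, against 580 to 643 on the lacZ arrays, with SCG2 at 10.61 against 6.64 and CHGA at 6.40 against 6.44. Of 8 endothelial markers, 3 lay above the median in TGFB1 cells and 1 in parental cells, with CDH5 at 5.96 and 6.02. Haematopoietic markers summed to 8870 to 9560 on the TGFB1 arrays, against 7150 to 7390 on the parental arrays, with PTPRC at 6.28 and 6.59. They summed to 9170 to 9330 on the shCDH1 arrays, against 6190 to 6910 on the shNT arrays. In each of these 4 groups, 2 of 11 lay above a level of 8. CD68 was at 12.70 and CSF1R at 10.66 in TGFB1 cells, against 12.49 and 7.97 in parental cells, whereas CD14 was lower, at 7.22 against 8.72. In shCDH1 cells CD68 was at 12.95, against 12.31 in shNT cells, whereas CSF1R was lower, at 6.50 against 7.96. On the SNAIL arrays they summed to 7800 to 8560, against 7480 to 7800 on the lacZ arrays. Endothelial markers summed to 813 to 888 on the TGFB1 arrays, against 681 to 728 on the parental arrays, and to 694 to 812 on the SNAIL arrays, against 698 to 731 on the lacZ arrays. The part of these markers in the results was not tested.

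Some other transcription factors of EMT were called too. Of 18 measured, 11 were higher and 1 lower in TGFB1 cells, 6 higher and 3 lower in SNAIL cells, and 9 higher and 2 lower in shCDH1 cells. Those are 61.1% and 5.56%, and 33.3% and 16.7% of the list in TGFB1 and SNAIL cells. Against parental cells, 7 were higher and 3 lower in SNAIL cells. PRRX2, a homeobox factor of mesenchyme, was 6.91-fold, 18.3-fold and 12.6-fold higher in TGFB1, SNAIL and shCDH1 cells. Its control level was 6.95 in lacZ and 8.75 in parental cells, and against parental cells SNAIL cells were 5.26-fold higher. TCF4, an E protein that pairs with TWIST proteins, was 3.23-fold, 4.51-fold and 2.89-fold higher in TGFB1, SNAIL and shCDH1 cells. SOX9 was 3.56-fold higher in TGFB1 and 8.77-fold higher in shCDH1 cells, and FOXQ1 was 4.95-fold lower in shCDH1 cells. Of the 9 closest paralogues of the members, such as SNAI3 and HAND2, 0 were called in TGFB1 or in shCDH1 cells. The shares of all genes there are those given above. In SNAIL cells 3 were called, 22.2% higher and 11.1% lower, beside 18.5% and 15.9% of all genes. HAND1, a helix-loop-helix factor of the heart, was 2.24-fold higher than in lacZ cells and 2.75-fold higher than in parental cells. TCF15 (adjusted p = 0.0473) was not called against parental cells (adjusted p = 0.186) or when any 1 of 5 of the 6 arrays was left out, with adjusted p up to 0.242, nor in 4 other alternatives. FERD3L (adjusted p = 0.0192) was not called when any 1 of 4 of the 6 arrays was left out, with adjusted p up to 0.0893, nor in 2 other alternatives.

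The E proteins and their ID inhibitors set how much TWIST dimer can form. Of 7 genes, 1 was higher and 5 lower in TGFB1 cells, 1 higher and 4 lower in SNAIL cells, and 2 higher and 3 lower in shCDH1 cells. Those are 14.3% and 71.4%, 14.3% and 57.1%, and 28.6% and 42.9% of the list. The shares of all genes were 14.3% and 14.4%, 18.5% and 15.9%, and 16.8% and 15.2%. Against parental cells, 2 were higher and 4 lower in SNAIL cells. ID1, an inhibitor that binds E proteins, was 5.90-fold lower in TGFB1 and 3.71-fold lower in SNAIL cells, and was also lower in shCDH1 cells (adjusted p = 0.000415). ID4 was 4.48-fold lower in TGFB1 and 2.17-fold lower in shCDH1 cells, and ID2 3.25-fold lower in SNAIL cells. TCF3, the E protein E2A, was 2.85-fold lower in SNAIL cells.

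The corepressors are the proteins through which these factors silence promoters. Of 31 genes of corepressors and chromatin enzymes, 5 were higher and 2 lower in TGFB1 cells, 6 higher and 8 lower in SNAIL cells, and 5 higher and 7 lower in shCDH1 cells. Those are 16.1% and 6.45%, 19.4% and 25.8%, and 16.1% and 22.6% of the list, beside the shares of all genes given above. Against parental cells, 7 were higher and 9 lower in SNAIL cells. CTBP2, a corepressor that ZEB proteins recruit, was 1.93-fold lower in SNAIL and 1.65-fold lower in shCDH1 cells. AJUBA, a LIM protein recruited by SNAIL, was 2.03-fold lower in shCDH1 cells and WTIP, another, 2.23-fold higher in SNAIL cells. LOXL3, an enzyme that stabilizes SNAIL, was 1.53-fold higher in TGFB1 cells. EZH2, the methyltransferase of Polycomb complex PRC2, was 2.19-fold lower in TGFB1 than in parental cells, at 9.88 against 11.01, but differed by log2 0.27 in the opposite direction from shNT cells (adjusted p = 0.509).

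Of 31 kinases, phosphatases and ubiquitin enzymes that set the stability of SNAIL, SLUG, TWIST or ZEB proteins, 9 were higher and 7 lower in TGFB1 cells, 9 higher and 4 lower in SNAIL cells, and 5 higher and 7 lower in shCDH1 cells. Those are 29.0% and 22.6%, 29.0% and 12.9%, and 16.1% and 22.6% of the list. Over all genes the shares were 14.3% and 14.4%, 18.5% and 15.9%, and 16.8% and 15.2%. Against parental cells, 11 were higher and 5 lower in SNAIL cells. PRKD1, a kinase that phosphorylates SNAIL, was 6.13-fold and LATS2, another, 2.95-fold higher in SNAIL cells. FBXL14, a ubiquitin ligase for SNAIL, was 2.29-fold lower in shCDH1 cells. CSNK1A1, a casein kinase, was 2.31-fold higher in TGFB1 and 1.83-fold higher in SNAIL cells.

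Upstream of the family, 15 of 35 ligands, receptors and signalling genes were higher and 8 lower in TGFB1 cells, 13 higher and 13 lower in SNAIL cells, and 10 higher and 8 lower in shCDH1 cells. Those are 42.9% and 22.9%, 37.1% and 37.1%, and 28.6% and 22.9% of the list. Over all genes the shares were 14.3% and 14.4%, 18.5% and 15.9%, and 16.8% and 15.2%. Against parental cells, 13 were higher and 10 lower in SNAIL cells. WNT5A, a non-canonical Wnt ligand, was 12.3-fold higher in TGFB1 and 16.9-fold higher in SNAIL cells. TGFBR3, the TGF-beta co-receptor betaglycan, was 5.05-fold, 12.1-fold and 8.11-fold higher in TGFB1, SNAIL and shCDH1 cells. IL6, a cytokine that signals through STAT3, was 23.6-fold higher in TGFB1 cells and 13.4-fold lower in shCDH1 cells. It averaged 6.51 in shCDH1 and 10.26 in shNT cells, against 8.38 in parental cells, so the size of that fall depends on the control. Probes for the hairpin genes of the miR-200 family (MIR141, MIR200A, MIR200B, MIR200C and MIR429), chosen after their values were seen, had group means from 6.02 to 6.81. All were below the array-wide median, and mature microRNAs were not measured.

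The genes most like each member were ranked by Pearson's r over the 6 group means, among 7030 probes whose means spanned at least 1 log2 unit. The 6 means share arrays and normalization, and the r values are descriptions. SNAI2 was closest to GALNT9, which encodes a mucin-type glycosyltransferase (r = 0.97, n = 6), at 9.04 in TGFB1, 6.96 in parental, 7.20 in SNAIL and 8.81 in lacZ cells. Its most opposite gene was AMOT, which encodes the YAP regulator angiomotin, at 7.67 in TGFB1, 9.38 in parental, 9.61 in SNAIL and 7.75 in lacZ cells. ZEB1 was closest to ZCCHC18, MN1, STX2, CACNA1H and IKBIP, with r of at least 0.9886, and most opposite to STAT4 (r = -0.9978). STAT4, a signal transducer of interleukin-12, read 7.86, 7.72 and 6.70 in TGFB1, SNAIL and shCDH1 cells, against 11.19, 10.78 and 11.18 in parental, lacZ and shNT cells.

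ZEB2 was closest to PLEKHO1, HS3ST3A1, SLC12A4, CYP11A1 and TMEM115. HS3ST3A1, a heparan sulfate sulfotransferase, read 10.28 in TGFB1, 11.14 in SNAIL and 8.74 in shCDH1 cells, against 7.21 in parental, 7.89 in lacZ and 7.52 in shNT cells. TWIST1 was closest to FBN1 (r = 0.9989), the gene of the matrix protein fibrillin-1, at 8.97 in SNAIL cells and 7.03 to 7.38 in the other groups. Its most opposite gene was SPINT2, a protease inhibitor of epithelia, at 7.01 in SNAIL cells and 11.87 to 12.94 in the others. TWIST2 was closest to FOXP1 (r = 0.97), and SNAI1 spanned 0.36 log2 units and was not ranked. Among the members themselves, ZEB1 and ZEB2 had r = 0.79, ZEB2 and TWIST1 0.79, and SNAI2 and ZEB1 0.0017.

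**Figure D4:**
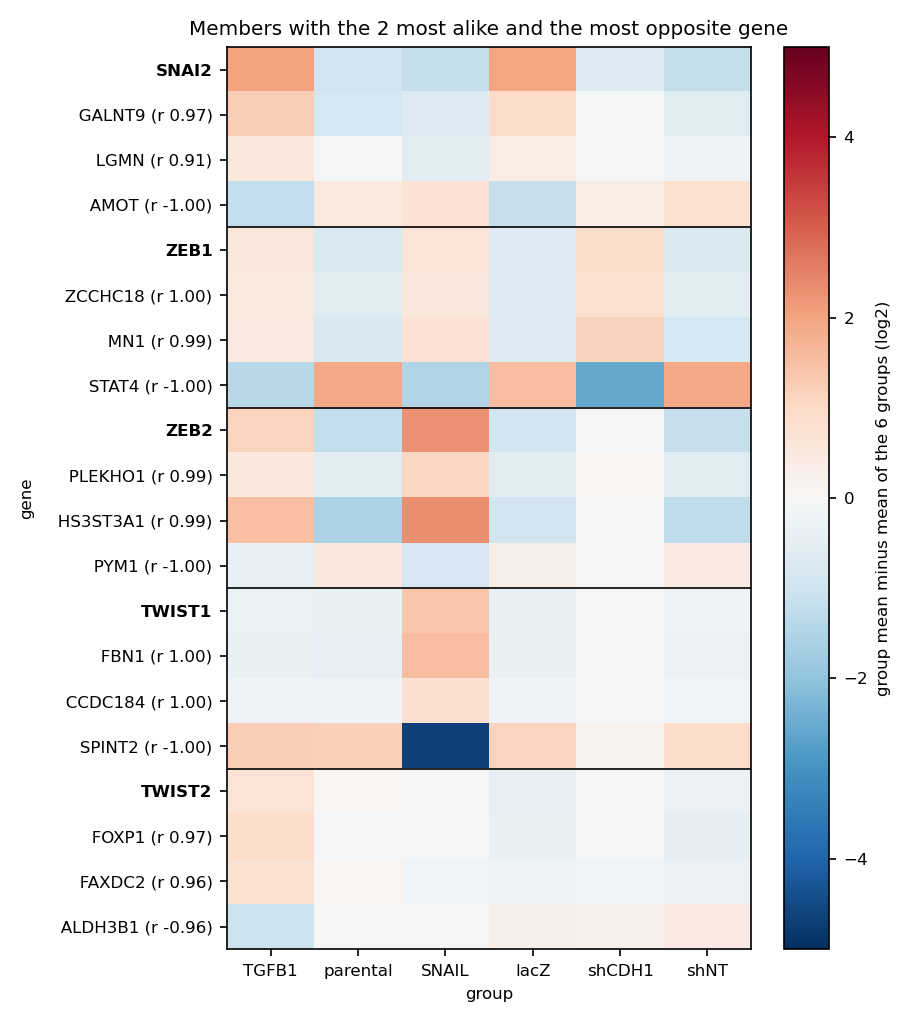
Group means of 5 members (bold), each with its 2 most alike genes and its most opposite gene. Columns are the 6 groups, rows are genes, and colour is the group mean minus the mean of the 6 groups (log2), with r over the 6 group means beside each name. SNAI2 and GALNT9 share high values in TGFB1 and lacZ cells, and TWIST1 and FBN1 stand high in SNAIL cells.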

How the data were processed

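Intensities are the authors' deposited values, 1 per probe and array on a linear scale that was not normalized, for 47323 probes on 18 arrays (3 in each of 6 groups). Per the labels' protocols, RNA was purified with Trizol and a column with DNase, and biotinylated cRNA was hybridized. The scanner settings and software are not given in the sources used here, and detection p-values were not used. The depth of arrays cannot be counted, and 3 arrays a group limit the precision. 2 probes with values of 0 were left out.

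With limma 3.58.1 in R 4.3.3, background was corrected by normexp (offset 50), and log2 values were quantile normalized. A model of 6 group means (12 residual degrees of freedom) was fitted with an intensity trend, and p-values were adjusted by Benjamini-Hochberg over all 47321 probes. A call is an adjusted p below 0.05, two-sided. Errors beside log2 differences are standard errors. The script was tested on simulated data. Figures were drawn with matplotlib 3.10.9.

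Probes were named from GEO's platform annotation, in which 30113 probes have 1 symbol, 8 have several and 17200 are not listed. 30074 symbols matched RefSeq (GRCh38.p14), which also gives the coordinates. For list genes the brightest probe was used, and up to 4 called genes per list and comparison, those with the largest change, could be named. CRB3, CLDN7, CGN, GRHL2, ESRP1, OVOL2, CLDN1, DSP, OCLN and ESRP2 were named after their values were seen. The genes most like a member were the 5 with the highest r and the 3 with the lowest. The members and lists were chosen with earlier results of these data known.

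Title numbers did not pair the arrays: same-numbered deviations correlated from -0.1037 to 0.1869. Alternatives changed the background correction, normalization, filter, probe rule, moderation, block, control and arrays, 1 at a time. Parental cells as the control of SNAIL cells were added after seeing the data.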

Additional observations from a re-analysis of the deposited data

Results flagged for a closer look

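The effects of the 3 experiments were compared by testing the difference between their differences (limma, log2 ± SE, adjusted over all probes), and 13 such results passed for the SNAIL, ZEB and TWIST probes. The SNAI2 values that involve the SNAIL effect contain the gap between controls, since lacZ cells had 7.58-fold more SNAI2 signal than parental cells. TGFB1 minus shCDH1 does not use lacZ cells. Its controls, shNT and parental cells, differed in SNAI2 by -0.22 ± 0.14 (adjusted p = 0.372) and -0.20 ± 0.15 (adjusted p = 0.478) for the 2 probes.

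SNAI2 gave 6.14 ± 0.19 for TGFB1 minus SNAIL (adjusted p = 5.48e-20) and 5.09 ± 0.21 with its second probe (adjusted p = 2.07e-17). TGFB1 minus shCDH1 was 2.45 ± 0.19 (adjusted p = 4.43e-11) and 2.08 ± 0.21 (adjusted p = 5.63e-09) for the same probes. SNAIL minus shCDH1 was -3.69 (adjusted p = 4.65e-15) and -3.01 (adjusted p = 2.1e-12).

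ZEB2 (ILMN_1688698) gave -0.89 ± 0.18 for TGFB1 minus SNAIL, 1.27 ± 0.18 for TGFB1 minus shCDH1 and 2.16 for SNAIL minus shCDH1, with the SNAIL effect the highest. Its dimmer probe (ILMN_1820767) gave -0.76 ± 0.19 for TGFB1 minus SNAIL (adjusted p = 0.00369) and 0.72 ± 0.19 for SNAIL minus shCDH1 (adjusted p = 0.00527). TWIST1 gave -1.73 ± 0.25 for TGFB1 minus SNAIL and 1.61 ± 0.25 for SNAIL minus shCDH1. No group was large enough for a test of single outlying arrays.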

How the results depend on the processing

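Over 1152 recomputed member differences (14 alternatives and each array left out), 1131 kept their direction and side of the threshold or were called in neither fit, 18 were no longer called, 3 became called and 0 reversed. Of 589 called in neither fit, 45 turned sign. ZEB1 and ZEB2 (ILMN_1688698) in the 3 main comparisons and TWIST1 in SNAIL cells kept their calls in each alternative that tested them, but ZEB1 and TWIST1 were too dim to enter the fit of probes above the median, and the size of dim probes moved with background correction: ZEB2 in SNAIL cells ran from 2.44 to 3.85 and TWIST1 there from 1.05 to 2.53 (log2).

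Without normalization, all-probe calls were 7049 in SNAIL, 6445 in shCDH1, 1463 in lacZ, 2967 in shNT, 5649 for TGFB1 minus SNAIL and 5509 for SNAIL minus shCDH1, against 11390, 10763, 3726, 6632, 8724 and 9769, and 2 of 8 member probes were called in shCDH1 cells. The share of calls that were higher was then 14.9% in TGFB1 (48.0% as reported), 16.9% in shNT (49.1%, and 31.1% with median centring), 27.0% (48.3%) for TGFB1 minus SNAIL, 16.3% (46.8%) for TGFB1 minus shCDH1 and 39.5% (49.6%) for SNAIL minus shCDH1. The all-probe medians were then -0.1953, -0.0842, -0.1550, -0.2546 and -0.1026.

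With 1 probe per gene, fewer probes entered and calls were 6245 (TGFB1), 7340 (SNAIL), 6803 (shCDH1), 4161 (shNT), 6042 (TGFB1 minus shCDH1) and 6404 (SNAIL minus shCDH1), with 1 member call in lacZ and 3 each for TGFB1 minus SNAIL and SNAIL minus shCDH1. With only probes above the median, 3 members were called in SNAIL cells and 3 each in these differences. With lacZ as the control, 3 members were called in TGFB1 cells. With parental cells as the control of SNAIL cells, an alternative chosen after seeing the data, 4 members were called, and both SNAI2 calls were lost. Leaving out 1 array gave 2 to 4 member calls in shCDH1 cells (2 without shNT array 3), 4 to 5 in TGFB1 and 6 to 7 in SNAIL cells. CDH2 for TGFB1 minus shCDH1 was 0.16 (adjusted p = 0.573) and reversed to -0.4714 (adjusted p = 0.0133) without background correction, and EZH2 in TGFB1 cells reversed to 0.2657 (adjusted p = 0.509) with shNT as the control. The cause was not tested.

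With the title number as a replicate block, all-probe calls were 10085 (TGFB1), 11753 (SNAIL), 11103 (shCDH1), 3983 (lacZ) and 7207 (shNT), and no count of member calls moved. The numbers did not pair the arrays.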
